A study of Rattus norvegicus with 19 samples.

Results

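Hearts of rats given empagliflozin and pirfenidone together (EMPA + PFD, 3 libraries) were compared at week 9 with hearts of control rats of that week (control 9w, 3 libraries). The members were chosen by the group stated in the library titles and make up 6 of the 19 RNA-seq libraries of the series. The study induced heart failure with preserved ejection fraction (HFpEF) in Sprague-Dawley rats that were 24 weeks old at the start. The rats drank 0.5 g/L L-NAME, an inhibitor of nitric oxide synthases, and ate a high-fat diet with 60% of its energy from lard for 5 weeks. For the next 4 weeks they received daily oral doses of the SGLT2 inhibitor EMPA (0.35 g per kg) and of PFD (0.3 g per kg). EMPA was gavaged in phosphate-buffered saline, and PFD acts against fibrosis. Control 9w rats ate chow and received no L-NAME and neither drug, so the groups compared differ in diet, L-NAME and both drugs. A further 2 groups serve for context. Untreated are the HFpEF rats given saline alone and taken at week 9 (3 libraries). Control 5w are control rats taken at week 5 (3 libraries). The protocol times the diet and L-NAME for 5 weeks, whereas a passage of the article counts the drug weeks as induction as well, and the 2 are not reconciled in the sources used here. They also do not state whether control rats were gavaged or at what time of day the hearts were taken.

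Total counts were 8141045, 7803050 and 9409670 in control 9w replicates 1 to 3 and 9360259, 10318343 and 10693001 in EMPA + PFD replicates 1 to 3. Levels are given as CPM, the usual scaling of counts to library size, with TMM factors, in the order of replicates 1, 2 and 3. At these depths a floor of 3 counts equals 0.299 to 0.369 CPM in the 6 libraries, which covers counting error only. The 100 most abundant genes held 20.3%, 21.2% and 22.1% of the counts in control 9w and 28.5%, 29.99% and 27.8% in EMPA + PFD.

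Libraries of the same group differed in ways the labels do not state. Sln, sarcolipin, a regulator of the calcium pump that marks atrial muscle, stood at 156.5, 0.984 and 695.5 CPM in control 9w, and at 517.8 CPM in untreated replicate 2 against 0.317 and 0.632 CPM in untreated replicates 1 and 3. The summed level of the 15 tested atrial and conduction genes, with Nppa the most abundant, was 5614, 467 and 24150 CPM in control 9w, 467.8, 942 and 549.6 CPM in EMPA + PFD, and 330, 15590 and 754 CPM in untreated. Control 9w replicates 1 and 3 and untreated replicate 2 thus carry atrial transcripts that the other week 9 libraries named here nearly lack. The labels give the tissue as heart and the methods of the article give it as left ventricle, and they do not say whether atrial tissue was taken along. Untreated replicate 2 also had a summed cardiomyocyte marker level of 30950 CPM, 9671 CPM of it from Nppa, against 79680 and 68830 CPM in untreated replicates 1 and 3. EMPA + PFD replicate 1 differed from replicates 2 and 3 in clock genes: Arntl, the clock activator also called Bmal1, stood at 73.55, 12.2 and 5.015 CPM, against 70.3, 76.0 and 71.0 CPM in untreated and 14.1, 17.5 and 16.45 CPM in control 9w. Arntl was chosen after its values were seen. In control 5w, the collagen gene Col3a1 stood at 1320, 25570 and 20230 CPM, so that group is not uniform either. The labels call all rats male while the series text speaks of both sexes. A check of sex-linked counts found 7 of 19 libraries that did not match their labels, 0 of them among the 6 compared here and 3 of them the untreated libraries. Sex and treatment therefore cannot be told apart in any value that uses the untreated group.

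The adult heart draws most of its ATP from mitochondrial oxidation of fatty acids, with glucose, lactate and ketone bodies as further fuels, and the nuclear receptors of the PPAR and ERR families raise many genes of these pathways. SGLT2 inhibitors shift whole-body fuel use toward fatty acids and ketone bodies. PFD is known for lowering TGF-β driven collagen production in fibroblasts.

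Of 12388 genes tested with edgeR, 1495 (12.1%) were differentially expressed between EMPA + PFD and control 9w at an adjusted p under 0.05 (quasi-likelihood F test, Benjamini-Hochberg over all tested genes) and at least a 2-fold change (DEGs). Of these, 886 (7.15% of tested genes) were higher and 609 (4.92%) lower in EMPA + PFD. The median log2 fold change over all tested genes was -0.08. With no fold minimum, 2122 genes (17.1%) were higher and 2059 (16.6%) lower. The 3 EMPA + PFD values lay all above or all below the 3 control 9w values for 6344 genes (51.2%), 1442 of the DEGs among them. Without EMPA + PFD replicate 2 there were 973 DEGs, 342 of them lower, and without control 9w replicate 2 there were 402 lower DEGs. With control 9w replicates 1 and 3 both left out, the median log2 fold change over all tested genes was -0.02. That choice was made after seeing the data and leaves 1 control 9w library. The exact permutation test for a single gene cannot go below p = 0.10 with 3 against 3, so the calls rest on the model over all genes. Many genes of fuel oxidation and some of muscle contraction were DEGs higher in EMPA + PFD. Many endothelial and erythroid markers and some interferon-response genes were DEGs lower. In bulk tissue, fewer cells of a type and less RNA per cell cannot be told apart.

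Comparisons that share the control 9w or the EMPA + PFD libraries are given side by side. Untreated against control 9w gave 113 DEGs (0.912%) and EMPA + PFD against untreated gave 473 (3.82%). With untreated replicate 2 left out, chosen after seeing the data, these counts were 412 (3.33%) and 83 (0.67%). Leaving out that library raised the first count and lowered the second by more than 3-fold, and the cause was not tested. Control 9w against control 5w gave 1817 DEGs (14.7%).

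**Figure D1:**
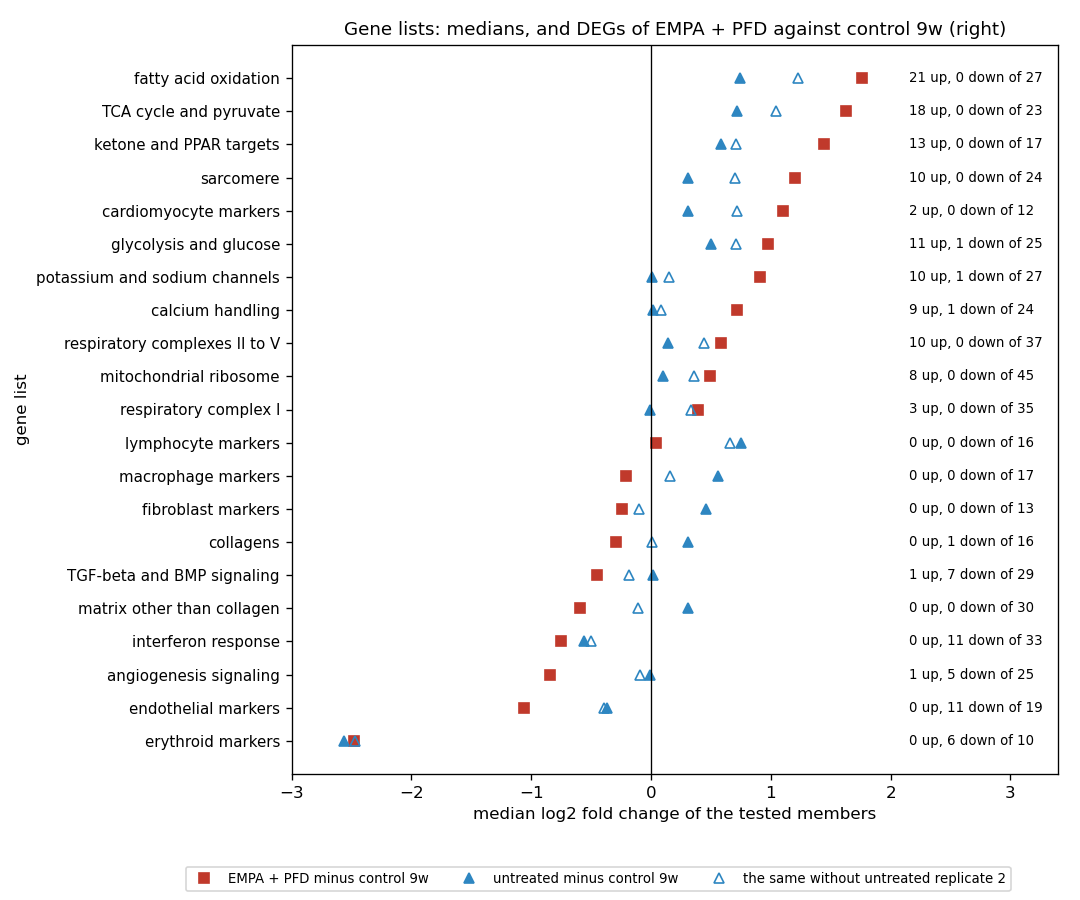
Median log2 fold change of the tested members of 21 gene lists, for EMPA + PFD minus control 9w (squares) and untreated minus control 9w (filled triangles, and open triangles without untreated replicate 2), with DEG counts of the first contrast at the right. Fatty acid oxidation stands at 1.76 and erythroid markers at -2.48 in EMPA + PFD minus control 9w.

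Among the DEGs with the largest rise were genes of signaling, excitation and fuel handling. Pik3c2g, a class II phosphoinositide 3-kinase, stood at 1.805, 4.80 and 1.595 CPM in control 9w and at 276.6, 298 and 289 CPM in EMPA + PFD, a log2 fold change of 6.74 ± 1.14 (SE, n = 3 per group, as in all fold changes here; adjusted p = 0.00112). All EMPA + PFD libraries were far above all control 9w libraries. Untreated replicates 1 and 3 also stood high, at 144 and 44.7 CPM, and replicate 2 at 2.60 CPM. Sphkap, an anchor protein of protein kinase A, stood at 4.96, 2.83 and 8.48 CPM against 60.9, 149 and 108 CPM (4.27 ± 0.53, adjusted p = 0.000355). The lowest EMPA + PFD library for Sphkap was thus far above the highest control 9w library. Ptgfr, the prostaglandin F receptor, rose by 4.12 ± 0.71 on the log2 scale (adjusted p = 0.00118), and Cavin4, a coat protein of muscle caveolae, by 3.76 ± 0.63 (adjusted p = 0.00109). Eef1a2, the translation elongation factor form of muscle and neurons, had 95.1, 79.6 and 144 CPM in control 9w and 1055, 1343 and 1013 CPM in EMPA + PFD (3.42 ± 0.63, adjusted p = 0.00171). Ak4, a mitochondrial adenylate kinase, rose by 3.33 ± 0.54 (adjusted p = 0.000936). These 6 genes were picked among DEGs whose groups did not overlap, so nothing is read from their separation. Sphkap, Ptgfr, Cavin4, Eef1a2 and Ak4 were all lower in control 9w than in control 5w, with log2 fold changes of -3.42, -3.50, -2.80, -2.61 and -2.59. Being picked for their rise over control 9w favors this direction, since the control 9w libraries are shared. The means of these genes in EMPA + PFD, 105.9, 275.8, 121, 1137 and 16.2 CPM, lay above their means in control 5w, 59.0, 178.7, 62.5, 650 and 9.79 CPM, a difference that was not tested. Slc27a2, a very-long-chain acyl-CoA synthetase chosen after its values were seen, had 0 counts in the 3 control 9w libraries and 6.62, 4.42 and 6.16 CPM in EMPA + PFD. At the floor of 3 counts this is a difference of at least 17.1-fold. Untreated hearts had 6.22, 5.12 and 4.11 CPM of it, so the gap to control hearts stayed.

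Fatty acid oxidation genes rose as a group. Of 27 tested members, 21 were DEGs higher and 0 lower, with a median log2 fold change of 1.76 against -0.08 over all tested genes. The 21 became 22 without EMPA + PFD replicate 1, and 14 or 15 without any other 1 of the 6 libraries. Hadh, which oxidizes hydroxyacyl-CoA in the mitochondrial matrix, stood at 63.85, 49.9 and 79.6 CPM in control 9w and at 660.0, 899 and 837 CPM in EMPA + PFD (3.63 ± 0.66, adjusted p = 0.00159). Hadhb, the thiolase subunit of the trifunctional protein, stood at 380.3, 311 and 406 CPM against 2861, 4335 and 3625 CPM (3.30 ± 0.55, adjusted p = 0.00107). Hadhb thus stood at a several-fold higher level in every EMPA + PFD library than in any control 9w library. Acot2, a mitochondrial acyl-CoA thioesterase, stood at 57.4, 70.35 and 55.2 CPM against 369, 1033 and 824.5 CPM (3.61 ± 0.70, adjusted p = 0.0022). EMPA + PFD replicate 1 was the lowest treated library for these 3 genes. Acadm, the medium-chain acyl-CoA dehydrogenase, chosen after its values were seen, had 388, 429.5 and 375 CPM against 2166, 3525 and 2885 CPM (2.85 ± 0.63, adjusted p = 0.00441). Lpl, lipoprotein lipase and the most abundant member, had 2627, 2964 and 1905 CPM against 2642, 4213 and 3687 CPM and did not pass (0.49 ± 0.44, adjusted p = 0.412). The lower enzymes of the spiral thus rose while the enzyme that frees fatty acids from circulating triglyceride did not pass the test. The list median was 0.74 in untreated minus control 9w with 0 DEGs, and 1.23 with 13 DEGs higher when untreated replicate 2 was left out. EMPA + PFD minus untreated had a list median of 1.14 with 2 DEGs, and 0.73 with 0 DEGs without that library. With control 9w replicates 1 and 3 both left out, the median of EMPA + PFD minus control 9w was 1.78 and 3 members were DEGs.

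Ketone and PPAR target genes followed, with 13 of 17 tested members DEGs higher (8 without control 9w replicate 2 and 5 with control 9w replicates 1 and 3 left out), 0 lower (1 by limma voom) and a median of 1.44. Pdk4, the kinase that turns off pyruvate dehydrogenase, stood at 105, 153 and 93.3 CPM in control 9w and at 443, 1791 and 1673 CPM in EMPA + PFD (3.48 ± 0.63, adjusted p = 0.0016). EMPA + PFD replicate 1 had about the level of untreated replicate 1, at 413.5 CPM, and the other treated libraries were far higher. Acot1, the cytosolic thioesterase, stood at 1.13, 0.861 and 0.897 CPM against 7.33, 14.1 and 14.3 CPM (3.61 ± 0.63, adjusted p = 0.00126). Angptl4, a secreted inhibitor of lipoprotein lipase, was chosen after its values were seen. Angptl4 had 9.93, 11.8 and 7.98 CPM in control 9w, 65.2, 59.2 and 77.2 CPM in EMPA + PFD and 12.45, 19.2 and 19.8 CPM in untreated. Its log2 fold change was 2.76 ± 0.37 against control 9w (adjusted p = 0.000489) and, against untreated without replicate 2, 2.06 ± 0.42 (adjusted p = 0.0351). Angptl4 thus went beyond untreated as well as beyond control hearts. Oxct1, which uses ketone bodies and is the most abundant member, had 513, 535 and 732 CPM against 1501, 1593 and 1407 CPM (1.34 ± 0.44, adjusted p = 0.0312). Its call ended without EMPA + PFD replicate 1 (adjusted p = 0.0517) and without control 9w replicate 1 or 2 (0.0987 and 0.0969) or EMPA + PFD replicate 2 or 3 (0.0743 and 0.0513).

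**Figure D2:**
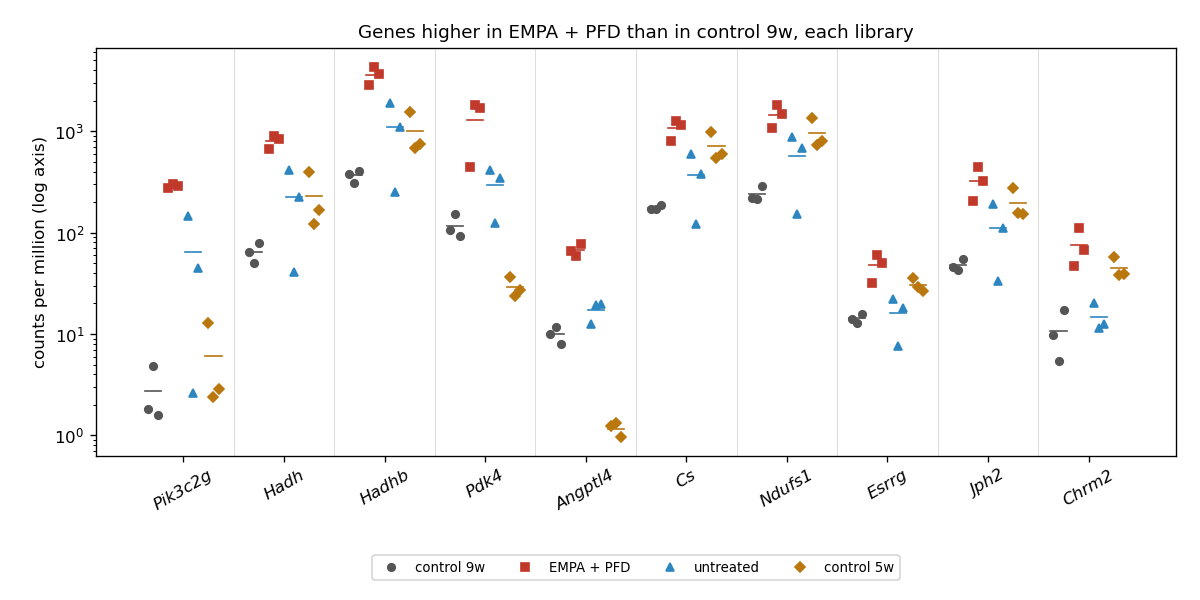
CPM on a log axis for 10 genes in the control 9w, EMPA + PFD, untreated and control 5w libraries, with a bar at each group mean. All EMPA + PFD points lie above all control 9w points, as for Hadh (660.0 CPM or more against 79.6 CPM or less).

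Genes of the TCA cycle and pyruvate use had 18 of 23 tested members as DEGs higher (5 with control 9w replicates 1 and 3 left out) and 0 lower, with a median of 1.63. The 18 became 14 or 15 without any 1 of the 6 libraries. Cs, citrate synthase, the entry enzyme of the cycle, stood at 169, 172 and 188 CPM in control 9w and at 799, 1267 and 1153 CPM in EMPA + PFD (2.61 ± 0.43, adjusted p = 0.00097). Ogdh, of the oxoglutarate dehydrogenase complex, stood at 88.1, 116 and 99.9 CPM against 520.2, 786 and 683 CPM (2.71 ± 0.36, adjusted p = 0.000492). Neither Cs nor Ogdh overlapped between the groups. Control 5w levels of Cs, 980.4, 549 and 590.2 CPM, lay above control 9w as well, a direction that the shared control 9w libraries favor. The median in untreated minus control 9w was 0.72, or 1.04 without untreated replicate 2.

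Respiratory chain genes moved less. Complex I had 3 of 35 tested members as DEGs higher by edgeR, a share near that over all tested genes, and 6 by DESeq2 or limma voom, with 0 lower (median 0.39, or 0.15 with control 9w replicates 1 and 3 left out, where 1 was higher), and complexes II to V had 10 of 37 higher and 0 lower (median 0.58). The 10 became 4 without control 9w replicate 1, 5 without control 9w replicate 2 or EMPA + PFD replicate 2, and 6 without EMPA + PFD replicate 3, and 2 with control 9w replicates 1 and 3 left out (median 0.34). Ndufs1, the largest core subunit of complex I, stood at 219.6, 215 and 289 CPM in control 9w and at 1072, 1816 and 1487 CPM in EMPA + PFD (2.60 ± 0.50, adjusted p = 0.00224). Ndufa4 was the most abundant member of the complex I list, though its product is now assigned to complex IV. Ndufa4 had 875, 1100 and 803 CPM against 1217, 1178 and 1041 CPM and overlapped (0.31 ± 0.37, adjusted p = 0.549). Sdha of complex II rose by 1.92 ± 0.37 (adjusted p = 0.00202), Uqcrc2 of complex III by 2.03 ± 0.40 (adjusted p = 0.00245) and Atp5f1a, the alpha subunit of ATP synthase, by 2.03 ± 0.53 (adjusted p = 0.0104). Ndufs1, Sdha, Uqcrc2 and Atp5f1a thus rose, while most members of both lists were not DEGs. Of 45 tested mitochondrial ribosome genes, 8 were DEGs higher and 0 lower (median 0.49), or 4 higher without any 1 of the control 9w libraries or without EMPA + PFD replicate 2 and 1 with control 9w replicates 1 and 3 left out, with Mrpl3 at 64.4, 59.4 and 79.7 CPM against 205, 235 and 238 CPM (1.74 ± 0.33, adjusted p = 0.00213). Of 58 tested cytosolic ribosome genes, 0 were DEGs by edgeR, DESeq2 or limma voom and the median was -0.20. With no fold minimum, 12 of them were lower by edgeR, 16 by DESeq2 and 33 by limma voom, and 17 had an unadjusted p under 0.05 in edgeR. The 12 became 1 without control 9w replicate 1 and 0 without control 9w replicate 2 or EMPA + PFD replicate 2 or 3.

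Some regulators of these programs rose with them. Of 15 tested regulators of mitochondrial biogenesis, 5 were DEGs higher and 0 lower (median 0.68), or 2 higher and 1 lower with control 9w replicates 1 and 3 left out. Esrrb and Esrrg, nuclear receptors of the ERR family, rose by 2.41 ± 0.47 (adjusted p = 0.00232) and 1.73 ± 0.30 (adjusted p = 0.00136). Esrrg stood at 14.1, 12.8 and 15.85 CPM in control 9w, 31.9, 60.0 and 50.25 CPM in EMPA + PFD and 22.2, 7.63 and 18.2 CPM in untreated. Ppargc1a, the coactivator PGC-1α, stood at 23.2, 21.3 and 25.5 CPM against 36.1, 94.0 and 90.3 CPM (1.65 ± 0.37, adjusted p = 0.00431), with EMPA + PFD replicate 1 close to control hearts. Ppard, the PPAR form most abundant here, overlapped between groups (0.32 ± 0.33, adjusted p = 0.473). Against untreated without replicate 2, Esrrg stood 1.23 higher (adjusted p = 0.0318) and Ppargc1a 1.76 higher (adjusted p = 0.0458).

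Glycolysis and glucose genes had 11 of 25 tested members as DEGs higher (5 with control 9w replicates 1 and 3 left out) and 1 lower, with a median of 0.98. Hk2, the insulin-responsive hexokinase, stood at 6.88, 6.76 and 11.4 CPM in control 9w and 38.0, 55.0 and 41.4 CPM in EMPA + PFD (2.42 ± 0.31, adjusted p = 0.000391). Untreated hearts had 30.9, 15.9 and 25.9 CPM and control 5w hearts 77.4, 83.1 and 74.7 CPM, so control 9w held the lowest Hk2 of these 4 groups. Hk2 was picked for its rise over control 9w, which favors that order. Pygb and Pygm, which break down glycogen, rose by 2.14 ± 0.33 (adjusted p = 0.000775) and 2.05 ± 0.46 (adjusted p = 0.00453). Pfkfb1, which sets the level of fructose 2,6-bisphosphate, was the member that fell, from 22.3, 21.15 and 19.04 CPM to 3.55, 6.46 and 5.85 CPM (-1.98 ± 0.42, adjusted p = 0.00341), and it was low in untreated hearts too, at 2.00, 1.62 and 3.06 CPM. Ldhb, the most abundant member, had 2035, 2953 and 2058 CPM against 5826, 4928 and 3995 CPM and did not pass (1.07 ± 0.55, adjusted p = 0.145). Gpam, which starts glycerolipid synthesis, rose by 2.14 ± 0.29 (adjusted p = 0.0005), and Lpin1, a phosphatidate phosphatase, by 1.89 ± 0.37 (adjusted p = 0.00241), among 6 DEGs higher and 0 lower of 21 tested lipid synthesis and storage genes (median 0.23).

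Some genes of the contractile machinery were also higher. Sarcomere genes had 10 of 24 tested members as DEGs higher and 0 lower, with a median of 1.20. The 10 became 4 without control 9w replicate 1, control 9w replicate 2 or EMPA + PFD replicate 2 and 1 with control 9w replicates 1 and 3 left out, and 1 member was lower without control 9w replicate 3. Nebl, nebulette of the cardiac Z-disc, stood at 46.2, 42.5 and 55.9 CPM in control 9w and at 98.5, 234 and 200.4 CPM in EMPA + PFD (1.88 ± 0.26, adjusted p = 0.000517). Lmod2, which lengthens thin filaments, stood at 12.5, 15.1 and 13.4 CPM against 35.7, 119 and 66.8 CPM (2.43 ± 0.49, adjusted p = 0.0028), and Des, desmin, rose by 2.07 ± 0.54 (adjusted p = 0.00996). All treated values of these 3 genes were above all control 9w values. Myh6, the fast myosin heavy chain of rodent heart and the most abundant member, had 9613, 10730 and 11270 CPM against 9191, 32560 and 28980 CPM and did not pass (1.16 ± 0.74, adjusted p = 0.242). Myh7, the slow myosin heavy chain, had 5114, 5300 and 4234 CPM against 20540, 11280 and 4552 CPM (1.31 ± 0.71, adjusted p = 0.169). Among treated libraries, replicate 1 was lowest in Myh6 and highest in Myh7. The summed level of 12 cardiomyocyte markers, led by Myh6, was 44170, 49490 and 59870 CPM in control 9w and 78660, 103900 and 87580 CPM in EMPA + PFD, with a median of 1.10. The sum includes the atrial gene Nppa, which adds 3622, 172.5 and 16880 CPM in control 9w. By edgeR 2 were DEGs higher (1 without any 1 of the 6 libraries, 0 with control 9w replicates 1 and 3 left out) and 0 lower, by DESeq2 5 higher and 1 lower, and by limma voom 7 higher and 1 lower. The part of this shift in the rise of fuel and sarcomere genes was not tested. The sarcomere median was 0.31 in untreated minus control 9w and 0.70 without untreated replicate 2.

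Calcium handling genes had 9 of 24 tested members as DEGs higher and 1 lower (median 0.72), the lower one being the atrial gene Sln, with 0 lower by limma voom or without EMPA + PFD replicate 2 or 3. The 9 became 5 without control 9w replicate 1 or EMPA + PFD replicate 2 and 3 with control 9w replicates 1 and 3 left out. Jph2, junctophilin, which holds the calcium release unit to the T-tubule, stood at 45.8, 42.7 and 54.3 CPM in control 9w and at 204, 439 and 325 CPM in EMPA + PFD (2.76 ± 0.49, adjusted p = 0.00151). Casq2, the calcium buffer of the sarcoplasmic reticulum, rose by 1.60 ± 0.38 (adjusted p = 0.00618), and Ryr2, the release channel, by 1.34 ± 0.33 (adjusted p = 0.0078). Atp2a2, the pump SERCA2 and the most abundant member, stood at 4400, 3863 and 5805 CPM against 10070, 18290 and 14210 CPM (1.60 ± 0.49, adjusted p = 0.0215). Its call ended without control 9w replicate 1 (adjusted p = 0.0699), control 9w replicate 2 (0.0823) or EMPA + PFD replicate 2 (0.0755). Itpr2, an inositol trisphosphate receptor, fell from 128, 123 and 107 CPM to 78.2, 57.6 and 72.5 CPM (-0.78 ± 0.16, adjusted p = 0.00261).

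Potassium and sodium channel genes had 10 of 27 tested members as DEGs higher and 1 lower (2 by limma voom, median 0.91), against medians of 0.01 in untreated minus control 9w and 0.15 without untreated replicate 2. The 10 became 4 without control 9w replicate 1, control 9w replicate 2 or EMPA + PFD replicate 2, and 6 with 0 lower when control 9w replicates 1 and 3 were left out. Kcnk3, the background channel TASK-1, stood at 9.93, 7.62 and 10.8 CPM in control 9w and at 34.3, 58.8 and 36.25 CPM in EMPA + PFD (2.19 ± 0.43, adjusted p = 0.00229). Kcne1, the beta subunit of the slow delayed rectifier, fell from 4.17, 1.35 and 10.5 CPM to 1.18, 0.12 and 0.104 CPM (adjusted p = 0.00823), with 1 count in each of EMPA + PFD replicates 2 and 3, so no fold is given. It did not pass with control 9w replicates 1 and 3 both left out (adjusted p = 0.356). Hcn4, the pacemaker channel of the conduction system, stood at 1.35, 0.369 and 2.49 CPM against 18.6, 24.75 and 14.3 CPM (3.72 ± 0.52, adjusted p = 0.000532). Control 5w hearts had the highest Hcn4 of the 4 groups, at 48.0, 54.7 and 59.0 CPM.

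Receptor and kinase genes split. Of 26 tested adrenergic and other G-protein-coupled receptor genes, 4 were DEGs higher and 0 lower (1 lower by limma voom and without control 9w replicate 3 or EMPA + PFD replicate 2 or 3, and 2 with control 9w replicates 1 and 3 left out), with a median of -0.15. Chrm2, the muscarinic receptor that slows the heart, stood at 9.70, 5.41 and 17.05 CPM in control 9w, 46.7, 111 and 68.0 CPM in EMPA + PFD and 20.1, 11.4 and 12.4 CPM in untreated. It rose by 2.80 ± 0.44 against control 9w (adjusted p = 0.00082) and stood 2.21 above untreated without replicate 2 (adjusted p = 0.0496). Adrb1, the main adrenergic receptor of cardiomyocytes, rose by 2.12 ± 0.46 (adjusted p = 0.00401), and Gnai3, an inhibitory G-protein subunit, fell by 0.96 on the log2 scale (SE 0.20, adjusted p = 0.00332). Of 32 tested genes of protein kinase C and linked signaling, 6 were DEGs higher and 0 lower (1 lower by limma voom and without control 9w replicate 3 or EMPA + PFD replicate 2, and 3 with control 9w replicates 1 and 3 left out). The list holds genes that the RNA-seq text of the article names, picked there on these samples, and further forms of protein kinases A, C and D. With no fold minimum, 14 of them were higher and 10 lower. Prkce, protein kinase C epsilon, stood at 8.12, 6.89 and 7.88 CPM in control 9w, 23.4, 41.0 and 33.2 CPM in EMPA + PFD and 14.4, 8.93 and 10.8 CPM in untreated (2.09 ± 0.25 against control 9w, adjusted p = 0.000276). Prkaca, the catalytic subunit of protein kinase A, rose by 1.5 ± 0.27 (adjusted p = 0.00162) and Ppp2ca, the catalytic subunit of protein phosphatase 2A, by 1.45 ± 0.27 (adjusted p = 0.002). The classical form Prkca rose by 0.94 ± 0.28 (adjusted p = 0.0181), a call that ended without control 9w replicate 1 (adjusted p = 0.07) or 2 (0.079). Prkcb, Prkcd, Prkci, Prkcq, Prkcz and Prkd1 did not pass, with log2 fold changes of -0.19, -0.30, 0.02, 0.20, 0.13 and -0.19. Prkd2 and Prkd3, of the protein kinase D family, fell by 0.94 (SE 0.24, adjusted p = 0.00871) and 0.62 (SE 0.13, adjusted p = 0.00285) on the log2 scale. Prkch, protein kinase C eta, fell by 0.82 (SE 0.22, adjusted p = 0.0106), a call that ended without control 9w replicate 2 (adjusted p = 0.052). The family thus did not move as a block: Prkce rose, Prkd2 and Prkd3 fell, and Prkcb, Prkcd, Prkci, Prkcq, Prkcz and Prkd1 overlapped between the groups.

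Stress and turnover genes added smaller groups of rises. Of 29 tested antioxidant genes, 6 were DEGs higher and 0 lower (median 0.30), with Sod2, superoxide dismutase of mitochondria, at 179, 182.5 and 225 CPM against 667, 882 and 795 CPM (2.00 ± 0.40, adjusted p = 0.00254). Of 28 tested heat shock genes, 7 were DEGs higher (4 with control 9w replicates 1 and 3 left out) and 0 lower (median 0.50), with the mitochondrial chaperonin Hspd1 rising by 1.69 ± 0.35 (adjusted p = 0.003). Fbxo32, the ubiquitin ligase atrogin-1, stood at 7.44, 9.35 and 10.97 CPM in control 9w, 40.9, 56.3 and 46.8 CPM in EMPA + PFD and 20.1, 9.50 and 15.4 CPM in untreated. It rose by 2.37 ± 0.25 against control 9w (adjusted p = 0.000276) and stood 1.43 above untreated without replicate 2 (adjusted p = 0.0183). Sesn1, a stress-induced brake on growth signaling, had 82.5, 72.1 and 85.5 CPM against 99.0, 279 and 233 CPM (1.35 ± 0.30, adjusted p = 0.00453). Fbxo32 set the treated group apart in every library, whereas Sesn1 in EMPA + PFD replicate 1 lay just above control hearts.

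Among 256 genes named by the rule given with the processing, 70 passed the edgeR test of EMPA + PFD against untreated with all untreated libraries, with no fold minimum, against 1501 (12.1%) of all tested genes, and 14 also passed without untreated replicate 2, against 138 (1.11%). Most of the 256 were picked for their change against control 9w, which shares libraries with these comparisons, so nothing is read from these shares. Those 14 include Sphkap, Esrrg, Ppargc1a, Nebl, Chrm2, Prkce, Gpam and Fbxo32 on the higher side. Tlx1, a homeobox transcription factor, led the lower side, with 7.56, 12.8 and 7.98 CPM in control 9w, 0.71, 1.20 and 1.25 CPM in EMPA + PFD and 6.22, 5.20 and 6.22 CPM in untreated. It fell by 3.14 on the log2 scale against control 9w (SE 0.38, adjusted p = 0.000276) and by 2.54 against untreated without replicate 2 (adjusted p = 0.0226). Cxcl12, Csf1 and Tnfaip2 were also on the lower side. Their log2 fold changes against untreated without replicate 2 were -1.37, -1.03 and -0.96 (adjusted p = 0.0412, 0.034 and 0.034). Of the 256, 25 passed the test of untreated against control 9w, against 220 (1.78%) of all tested genes, and 25 of these also passed without untreated replicate 2, against 215 (1.74%). Pik3c2g, Hk2, Pfkfb1, Irf7 and Hbb are among them, with untreated and EMPA + PFD hearts on the same side of control hearts, a direction that the shared control libraries favor.

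Endothelial genes were lower as a group. Of 19 tested markers, 11 were DEGs lower and 0 higher, 15 were lower with no fold minimum, and the median was -1.06. Their summed level, with Fabp4 the most abundant, was 11950, 14070 and 8909 CPM in control 9w, 5610, 5418 and 5335 CPM in EMPA + PFD, 7736, 8004 and 8488 CPM in untreated and 4676, 3604 and 4106 CPM in control 5w. All EMPA + PFD libraries thus lay below all control 9w and untreated libraries and above all control 5w libraries. The cardiomyocyte marker list had a median log2 fold change of 1.10 in EMPA + PFD minus control 9w. The part of this shift in the endothelial fall was not tested. Sox17, a transcription factor of arterial endothelium, stood at 247, 251 and 148.5 CPM in control 9w and at 69.4, 74.1 and 84.6 CPM in EMPA + PFD (-1.5 ± 0.17, adjusted p = 0.000276). Aqp1, the water channel of capillaries, stood at 2419, 3125 and 1628 CPM against 811, 1028 and 764 CPM (-1.46 ± 0.36, adjusted p = 0.00713). Sox18, a partner of Sox17, fell by 1.49 on the log2 scale (SE 0.36, adjusted p = 0.00708). Pecam1, a junction protein chosen after its values were seen, stood at 645, 675 and 563 CPM against 251.5, 367 and 284 CPM (-1.06 ± 0.21, adjusted p = 0.00232), and its change was under 2-fold without EMPA + PFD replicate 1 (-0.93). The groups did not overlap for any of these 4 genes. Fabp4 itself overlapped and did not pass (-1.03 ± 0.45, adjusted p = 0.0876), though it did without control 9w replicate 3 (adjusted p = 0.0382). Sox17 was also lower in untreated than in control 9w, by 1.26 on the log2 scale, and Sox18, at 84.4, 81.35 and 80.5 CPM in untreated, was not called there. The endothelial median in untreated minus control 9w was -0.37, and -0.39 without untreated replicate 2. With control 9w replicates 1 and 3 left out, 12 endothelial members were DEGs lower.

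Vessel signaling and nitric oxide genes went the same way in part. Angiogenesis signaling had 5 of 25 tested members as DEGs lower (9 by limma voom) and 1 higher (median -0.84, or -0.54 without control 9w replicate 2), and the 5 became 1 without control 9w replicate 2 or EMPA + PFD replicate 2. Adm, adrenomedullin, a vasodilator peptide, fell from 44.4, 56.8 and 43.5 CPM to 16.1, 17.0 and 17.3 CPM (-1.52 ± 0.19, adjusted p = 0.000365). Angpt1, the ligand that steadies vessels, was the member that rose, from 8.23, 3.075 and 16.65 CPM to 29.6, 57.0 and 58.2 CPM (2.36 ± 0.48, adjusted p = 0.00298). In the nitric oxide and cGMP list, 3 of 24 tested genes were DEGs higher and 5 lower (median -0.48). Without control 9w replicate 3 there were 5 higher, and without EMPA + PFD replicate 2 there were 3 lower. Npr1, the natriuretic peptide receptor that makes cGMP, fell from 209, 248 and 167 CPM to 74.7, 69.2 and 61.7 CPM (-1.60 ± 0.23, adjusted p = 0.00063). Pde3a, a phosphodiesterase of heart muscle, rose by 1.79 ± 0.26 (adjusted p = 0.000585), and Prkg1, the cGMP-dependent kinase, by 2.00 ± 0.35 (adjusted p = 0.00132). The receptor and the downstream kinase of the cGMP route thus moved in opposite directions. Klf2 and Klf4, factors that respond to blood flow in endothelium, fell by 1.39 (SE 0.25, adjusted p = 0.00146) and 1.12 (SE 0.19, adjusted p = 0.00129) on the log2 scale, and the change of Klf4 was under 2-fold without EMPA + PFD replicate 3 (-0.94).

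TGF-β and BMP signaling had 7 of 29 tested members as DEGs lower and 1 higher (0 higher by limma voom; median -0.45, or -0.18 without control 9w replicate 3), and the 7 became 4 without control 9w replicate 3 or EMPA + PFD replicate 2. Id1, a target of BMP signaling, stood at 415, 460.1 and 305 CPM in control 9w, 143, 100.3 and 123 CPM in EMPA + PFD and 220.6, 243 and 237 CPM in untreated (-1.69 ± 0.24 against control 9w, adjusted p = 0.000551). Id3, its relative, fell by 1.55 on the log2 scale (SE 0.31, adjusted p = 0.00248). Tgfbr3, the co-receptor betaglycan, was the higher DEG (1.06 ± 0.27, adjusted p = 0.00825), and its change was under 2-fold without control 9w replicate 2 (0.79) or EMPA + PFD replicate 3 (0.98). Ccn2, the most abundant member and a matrix-linked target, had 533, 296 and 1135 CPM against 103, 374 and 148 CPM and did not pass (-1.65 ± 0.92, adjusted p = 0.178). Id1 and Id3 thus fell, while Ccn2 differed widely among the libraries of both groups and did not pass.

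Structural fibrosis genes gave few calls. Of 16 tested collagen genes, 1 was a DEG lower (2 without EMPA + PFD replicate 1, 3 by limma voom) and 0 higher (0 lower and 1 higher with control 9w replicates 1 and 3 left out), with a median of -0.29 and 2 lower with no fold minimum (5 by limma voom), Col4a1 and Col4a3 of basement membranes. Col4a1 stood at 1299, 1334 and 1136 CPM in control 9w and at 788, 640.1 and 718 CPM in EMPA + PFD (-0.81 ± 0.23, adjusted p = 0.015). The Col4a1 call ended without control 9w replicate 2 (adjusted p = 0.0514) or EMPA + PFD replicate 2 (0.0644), and that of Col4a3 (-1.18 ± 0.31, adjusted p = 0.011) without EMPA + PFD replicate 2 (0.0598). Col3a1, the most abundant collagen gene, had 1450, 1023 and 1766 CPM against 1479, 748 and 1365 CPM and overlapped (-0.24 ± 0.72, adjusted p = 0.817). Col3a1 thus did not separate the groups, and untreated hearts had 1211, 3314 and 1371 CPM of Col3a1. Of 30 tested matrix genes other than collagens, 0 were DEGs by edgeR or DESeq2 and 4 were lower DEGs by limma voom, with a median of -0.59 and 2 genes at an unadjusted p under 0.05 in edgeR. With no fold minimum 1 was lower by edgeR (0 without EMPA + PFD replicate 2), 2 by DESeq2 and 6 by limma voom. All 11 tested myofibroblast activation genes had negative log2 fold changes, with a median of -1.19 (-0.81 without control 9w replicate 3 and -0.51 with control 9w replicates 1 and 3 left out), and 1 was a lower DEG by edgeR and DESeq2 and 3 by limma voom. The 1 became 0 without control 9w replicate 3 or EMPA + PFD replicate 1 or 2, so the list leaned lower with few calls. Of 13 tested fibroblast markers, 0 were DEGs by edgeR, DESeq2 or limma voom, with a median of -0.24 and 0 genes at an unadjusted p under 0.05 in edgeR. Their summed level, led by Gsn, was 9874, 6726 and 10020 CPM in control 9w and 11630, 4580 and 8476 CPM in EMPA + PFD. Of 17 tested macrophage markers, 0 were DEGs by edgeR, DESeq2 or limma voom, with a median of -0.21 and 1 gene at an unadjusted p under 0.05 in edgeR. Of 16 tested lymphocyte markers, 0 were DEGs by edgeR, 1 was lower by DESeq2 and 2 by limma voom, with a median of 0.04 and 1 gene at an unadjusted p under 0.05 in edgeR. With 1 library left out, the medians ran from -0.44 to -0.09 for collagens, -0.89 to -0.19 for other matrix genes, -0.42 to 0.02 for fibroblast, -0.43 to -0.01 for macrophage and -0.16 to 0.27 for lymphocyte markers. With control 9w replicates 1 and 3 left out, they were 0.12, 0.27, 0.16, 0.22 and 0.41, so the sign of these 5 medians depends on the control libraries used. Summed macrophage markers, led by Lyz2, stood at 598, 465.5 and 742.5 CPM in control 9w and 421, 461 and 688 CPM in EMPA + PFD.

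Many interferon-response genes were lower. Of 33 tested members, 11 were DEGs lower and 0 higher, 20 were lower with no fold minimum (8 without control 9w replicate 2 and 12 without EMPA + PFD replicate 2), and the median was -0.75. Irf7, the factor that amplifies interferon output, stood at 220.4, 245 and 129 CPM in control 9w, 78.6, 68.6 and 58.9 CPM in EMPA + PFD and 59.0, 58.05 and 79.1 CPM in untreated (-1.53 ± 0.32 against control 9w, adjusted p = 0.00305). Oas2, a sensor of double-stranded RNA, fell from 13.0, 19.2 and 12.2 CPM to 6.74, 3.23 and 4.28 CPM (-1.63 ± 0.36, adjusted p = 0.00408). Ifi27, the most abundant member, stood at 574, 689 and 429 CPM against 248, 259.7 and 259 CPM (-1.14 ± 0.30, adjusted p = 0.00993), and its change was under 2-fold without control 9w replicate 2 (-0.97). The groups did not overlap for these 3 genes, and untreated hearts lay at or near the treated level. Irf7 was lower in untreated than in control 9w by 1.60 on the log2 scale (adjusted p = 0.0247) and differed from EMPA + PFD by 0.07 (adjusted p = 0.887). The list median was -0.56 in untreated minus control 9w, -0.32 in EMPA + PFD minus untreated and 0.74 in control 9w minus control 5w. With control 9w replicates 1 and 3 left out, 14 members were DEGs lower. Without control 9w replicate 2 there were 3, and without EMPA + PFD replicate 2 there were 7. Of 19 tested MHC genes, 1 was a DEG higher and 2 lower, and with no fold minimum 1 was higher (3 by limma voom) and 6 lower (8 by DESeq2 and by limma voom), while the median was 0.58. Most of those that passed thus fell. The median was -0.16 by limma voom, 0.12 without EMPA + PFD replicate 1 and 0.29 without EMPA + PFD replicate 3, and the 2 became 5 without EMPA + PFD replicate 3 and 1 by limma voom or without control 9w replicate 2 or EMPA + PFD replicate 2. The DEG higher was lost without control 9w replicate 3, and without EMPA + PFD replicate 3 there were 2, or 4 higher with no fold minimum. Among class I genes of this list, RT1-CE10 fell from 44.2, 50.9 and 33.4 CPM to 17.3, 11 and 10.97 CPM (-1.71 ± 0.23, adjusted p = 0.0005). RT1-A2, another class I gene, stood at 24.9, 25.5 and 22.2 CPM in control 9w and at 52.0, 43.3 and 13.2 CPM in EMPA + PFD, where replicate 3 lay below every control 9w library. It did not pass (0.58 ± 0.32, adjusted p = 0.177) but did without EMPA + PFD replicate 3 (adjusted p = 0.00187). RT1 genes separate libraries of the series, and whether the rats differed in inherited RT1 forms was not tested.

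Promoters of interferon-response genes that fell are shown because many list members moved the same way and many of the promoters hold a textbook element. The table of RefSeq promoters, on build GRCr8, held 25 of the 33 tested genes. The letters TTTCNNTTTC, the core of the interferon-stimulated response element, or GAAANNGAAA on the other strand, lay within the 250 bases before the start of 1140 of 33469 promoters (3.41%). They lay in 16 of the 25 interferon-response promoters, in 12 of the 15 whose genes were lower at an adjusted p under 0.05 and in 4 of the 10 whose genes were not. Matches are in capitals in the promoters of Irf7 (chr1:205800024-205800273, minus strand), Ifi27 (chr6:128355062-128355311, plus strand), Bst2 (chr16:18254968-18255217, minus strand) and Oasl2 (chr12:47383186-47383435, minus strand), each 5′ to 3′ up to the start. Bst2, a tether of budding viruses, and Oasl2, of the oligoadenylate synthetase-like family, were chosen after their values were seen. Bst2 fell from 194, 257.5 and 119 CPM to 103, 61.3 and 66.8 CPM (-1.30 ± 0.33, adjusted p = 0.00917), and Oasl2 from 50.9, 67.6 and 38.3 CPM to 32.3, 18.65 and 20.1 CPM (-1.14 ± 0.26, adjusted p = 0.00479), the change of Oasl2 being under 2-fold without control 9w replicate 2 (-0.91) or EMPA + PFD replicate 2 (-0.99). The Bst2 call ended without control 9w replicate 2 (adjusted p = 0.0514) or EMPA + PFD replicate 2 (0.0504). A match in these windows is a description of letters.
Irf7: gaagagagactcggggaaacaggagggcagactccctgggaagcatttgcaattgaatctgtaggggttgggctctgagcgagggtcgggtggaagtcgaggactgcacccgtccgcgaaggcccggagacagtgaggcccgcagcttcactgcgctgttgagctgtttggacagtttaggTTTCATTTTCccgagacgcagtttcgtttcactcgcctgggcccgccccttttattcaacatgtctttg
Ifi27: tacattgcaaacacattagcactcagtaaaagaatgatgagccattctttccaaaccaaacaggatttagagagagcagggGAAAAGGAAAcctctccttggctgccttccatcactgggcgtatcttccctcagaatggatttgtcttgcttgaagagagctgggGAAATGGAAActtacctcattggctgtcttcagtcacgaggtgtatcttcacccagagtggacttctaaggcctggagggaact
Bst2: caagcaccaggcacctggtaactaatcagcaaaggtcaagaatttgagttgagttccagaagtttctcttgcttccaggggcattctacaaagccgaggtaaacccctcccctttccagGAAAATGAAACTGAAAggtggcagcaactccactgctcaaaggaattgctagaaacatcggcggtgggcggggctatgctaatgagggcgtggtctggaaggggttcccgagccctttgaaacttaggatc
Oasl2: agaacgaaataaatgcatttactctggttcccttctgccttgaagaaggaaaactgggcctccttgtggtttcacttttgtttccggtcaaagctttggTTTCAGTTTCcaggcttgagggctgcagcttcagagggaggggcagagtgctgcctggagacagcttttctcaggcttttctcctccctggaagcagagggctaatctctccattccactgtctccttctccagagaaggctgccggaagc

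Erythroid genes were lower in treated and in untreated hearts alike. Of 10 tested markers, 6 were DEGs lower and 0 higher (1 higher by DESeq2 or limma voom), with a median of -2.48. Their summed level, with Hbb the most abundant, was 1695, 1990 and 1363 CPM in control 9w, 185, 562 and 261 CPM in EMPA + PFD, 278, 260.1 and 356 CPM in untreated and 1889, 1114 and 1735 CPM in control 5w. Every EMPA + PFD and untreated library thus carried less of these transcripts than every control 9w library. Of the defining markers, Hbe1 and Hbg1 had 0 counts in all 6 libraries. Hbb, the adult beta globin, stood at 1404, 1688 and 1077 CPM against 104.5, 417 and 175.5 CPM (-2.58 ± 0.59, adjusted p = 0.00502). Hba-a1, an alpha globin, stood at 50.65, 58.2 and 42.4 CPM against 4.02, 14.2 and 5.54 CPM (-2.67 ± 0.67, adjusted p = 0.00796). Both globins fell by about the same factor. Alas2, the heme synthesis enzyme of red cell precursors, chosen after its values were seen, stood at 27.2, 30.01 and 26.0 CPM against 2.13, 10.2 and 3.66 CPM (-2.39 ± 0.61, adjusted p = 0.00921). Lgals5, a galectin of rat red cells outside this list, fell by 2.53 on the log2 scale (SE 0.63, adjusted p = 0.00806). All untreated libraries were below all control 9w libraries for Hbb, Hba-a1 and Alas2, and EMPA + PFD minus untreated had a list median of 0.16. How much blood remained in the hearts was not measured.

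Atrial muscle genes had large falls, with Sln the lowest log2 fold change of all tested genes. Of 15 tested atrial and conduction genes, 6 were DEGs lower and 2 higher, with a median of -1.5. The 6 became 2 without EMPA + PFD replicate 2 or 3, and the 2 became 1 without control 9w replicate 1 or 2 or any 1 of the EMPA + PFD libraries. Sln stood at 0.71, 0.478 and 0.418 CPM in EMPA + PFD (-9.03 ± 2.56 against control 9w, adjusted p = 0.0153), and its call ended without EMPA + PFD replicate 2 (adjusted p = 0.0614) or 3 (0.0549). Myl7, the atrial regulatory light chain, had 1083, 10.3 and 4260 CPM in control 9w and 20.6, 0.956 and 14.1 CPM in EMPA + PFD (-7.23 ± 2.11, adjusted p = 0.0173; 0.067 and 0.0559 without EMPA + PFD replicates 2 and 3). Bmp10, a growth factor of atrial muscle, stood at 31.25, 0.984 and 127 CPM against 0.355, 0.239 and 0.104 CPM, with at most 3 counts in each treated library, so no fold is given (adjusted p = 0.0072). Nppa, atrial natriuretic peptide, had 3622, 172.5 and 16880 CPM against 60.8, 375.6 and 134 CPM and did not pass (-5.18 ± 2.01, adjusted p = 0.0593). These differences rest on control 9w replicates 1 and 3. With both left out, Sln stood at -0.87 and Myl7 at 0.20, Sln, Myl7 and Bmp10 each had an adjusted p above 0.5, and 1 member of the list was a DEG lower. Untreated replicate 2 carried the same genes, with 3052 CPM of Myl7 against 24.0 and 44.4 CPM in replicates 1 and 3.

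**Figure D3:**
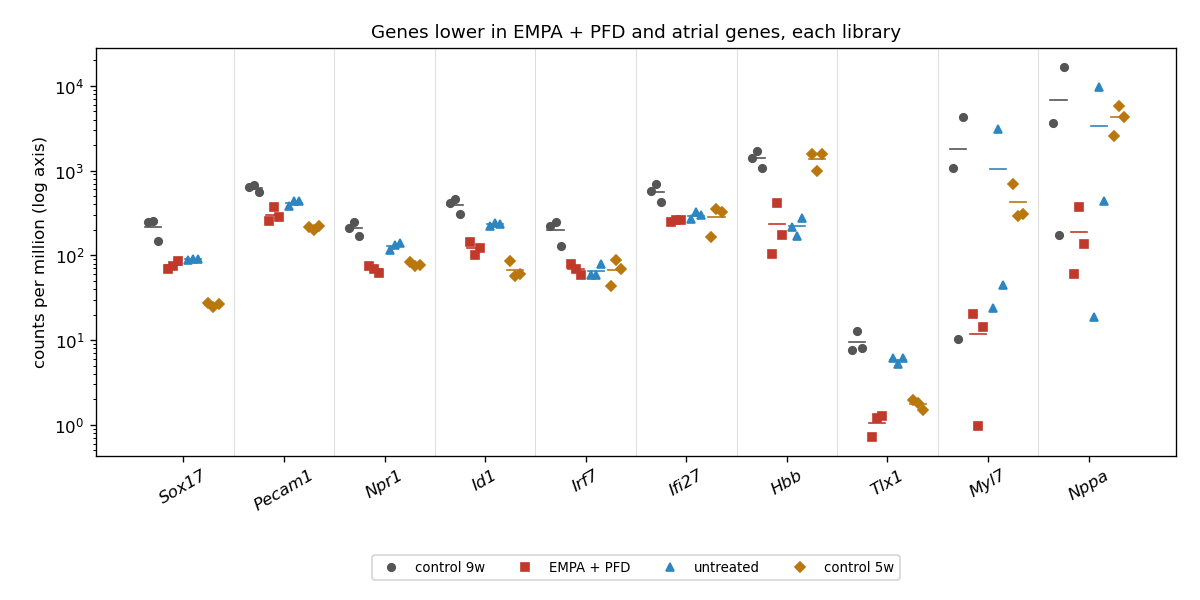
CPM on a log axis for 8 genes lower in EMPA + PFD and for the atrial genes Myl7 and Nppa, in the control 9w, EMPA + PFD, untreated and control 5w libraries, with a bar at each group mean. Control 9w replicates 1 and 3 stand at 1083 and 4260 CPM of Myl7, and control 9w replicate 2 at 10.3 CPM.

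Growth and clock genes completed the picture. Of 31 tested cell cycle genes, 3 were DEGs lower (8 by DESeq2, 4 by limma voom and 1 with control 9w replicates 1 and 3 left out) and 1 higher, with a median of -0.67, or -0.23 among genes with at least 10 counts in every library. Ccnd1, cyclin D1, fell from 225, 242 and 235 CPM to 84.4, 48.8 and 99.9 CPM (-1.59 ± 0.26, adjusted p = 0.000973), and Mki67, a marker of dividing cells, from 20.3, 20.7 and 23.6 CPM to 4.26, 6.34 and 8.46 CPM (-1.75 ± 0.45, adjusted p = 0.00876). Ccnd2, cyclin D2, rose instead, by 2.30 ± 0.47 (adjusted p = 0.0028), so the D cyclins moved apart. Of 16 tested clock genes, 2 were DEGs higher and 1 lower (median -0.41). Without EMPA + PFD replicate 3 there were 1 higher and 3 lower. Without any other 1 of the 6 libraries 0 were lower, with 1 higher without control 9w replicate 1 or 2 and 0 higher without control 9w replicate 3 or EMPA + PFD replicate 2, and none of the 16 was a DEG with control 9w replicates 1 and 3 left out. Ciart, a repressor of the clock activator, stood at 40.4, 39.7 and 39.2 CPM in control 9w, 2.37, 13.4 and 20.8 CPM in EMPA + PFD and 2.64, 2.11 and 3.48 CPM in untreated (-1.70 ± 0.62, adjusted p = 0.0462). EMPA + PFD replicate 1 lay within the range of the untreated libraries in Ciart and Arntl, and replicates 2 and 3 lay outside it. The Ciart call ended without EMPA + PFD replicate 1 (-1.20, adjusted p = 0.106), without EMPA + PFD replicate 2 (0.104) and without any of the control 9w libraries (0.0939, 0.0932 and 0.078). Nfil3, a clock output repressor, rose by 1.06 ± 0.22 (adjusted p = 0.00296), and its change was under 2-fold without control 9w replicate 3 (0.97) or EMPA + PFD replicate 2 (0.88).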

How the data were processed

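RNA-seq of rat hearts, 1 library per heart, was taken as raw gene counts deposited by the authors, who used Trim Galore, FastQC, HISAT2 on rn6 and HTSeq. Each file holds 17455 genes. All 19 libraries of 7 groups were fitted in 1 model with edgeR 4.0.16 (R 4.3.3): filterByExpr, TMM normalization, the quasi-likelihood F test and Benjamini-Hochberg adjustment over all tested genes. DEGs have an adjusted p under 0.05 and at least a 2-fold change. DESeq2 1.42.0, limma voom 3.58.1, other filters and normalizations, a replicate block, the 6 libraries alone and each library left out were alternatives. The pipeline was tested on simulated data.

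Genes were named by rule: 12 DEGs from each end of the log2 fold change scale, if their mean was at least 5 CPM, the groups did not overlap and the symbol was not provisional; in each of 51 gene lists, the most abundant member and at most 3 members that passed from either end; a list of protein kinase C and linked genes, some of them named in the article; and genes that separate libraries. Slc27a2, Arntl, Bst2, Oasl2, Acadm, Angptl4, Pecam1 and Alas2 were chosen after values were seen. Some genes that the rule picks are not reported here. The members and lists were chosen with earlier results of these data known. Promoters are from RefSeq on GRCr8, whereas the counts were made on rn6.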

Additional observations from a re-analysis of the deposited data

How the results depend on the processing

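The 1495 DEGs became 1461 and 1270 under other filters on low counts, 1494 and 1506 under other normalizations, 1617 with DESeq2, 1958 with limma voom, 1668 in a fit of the 6 libraries alone and 1537 without the untreated group in the model. Without the fold minimum there were 4181, 2122 higher and 2059 lower, since the threshold is looser. Leaving out 1 of the 6 libraries gave 973 to 1556 DEGs, 624 to 965 higher and 342 to 632 lower. The lowest total and the 342 came without EMPA + PFD replicate 2, and 402 lower DEGs without control 9w replicate 2; the cause was not tested. Without untreated replicate 2, untreated against control 9w gave 412 DEGs and EMPA + PFD against untreated 83; the cause was not tested. A choice made after seeing the data, leaving out control 9w replicates 1 and 3, gave 1161 DEGs and turned Myl7 to 0.20; the cause was not tested. It also moved the medians of the collagens to 0.12, of other matrix genes to 0.27, of fibroblast markers to 0.16 and of macrophage markers to 0.22.

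Replicate numbers do not pair the samples: profiles with the same number correlated at 0.08, 0.04 and 0.05, and control 9w replicate 1 correlated best with EMPA + PFD replicate 3, at 0.14. A replicate block gave 1407 DEGs.

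Limits are 3 hearts per group, atrial transcripts in some libraries, labelled sex that sex-linked counts did not match in the untreated group, and bulk tissue. At 3 counts the floor is 0.299 to 0.369 CPM, so a fold against 0 counts is a bound and genes with single counts get no fold.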

Other observations

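Immediate early genes, which respond within minutes to stretch and hormones, had 4 of 27 tested members as DEGs higher and 2 lower, with a median log2 fold change of 0.52 (0.12 and 0.29 without EMPA + PFD replicates 1 and 2, and 0.27 among genes with at least 10 counts in every library). The 4 became 1 without control 9w replicate 1 or 2 and 2 without EMPA + PFD replicate 1 or 2, and 1 with control 9w replicates 1 and 3 left out. Nr4a1, a nuclear receptor of this class, stood at 62.6, 43.2 and 93.1 CPM in control 9w, 212, 162 and 100.4 CPM in EMPA + PFD and 190.4, 342 and 227 CPM in untreated. It rose by 1.25 ± 0.31 against control 9w (SE, n = 3 and 3, adjusted p = 0.00779), with EMPA + PFD replicate 3 just above control 9w replicate 3. Of 31 tested cytokine and chemokine genes, 2 were DEGs higher (1 without control 9w replicate 2 or EMPA + PFD replicate 3) and 1 lower (3 without EMPA + PFD replicate 1). The lower one, the interleukin 1 receptor gene Il1r1, fell from 113, 117 and 122 CPM to 45.2, 38.4 and 53.7 CPM (-1.36 ± 0.22, adjusted p = 0.000867). Of 21 tested NF-kB pathway genes, 1 was a DEG lower and 0 higher, and 7 were lower with no fold minimum (8 without EMPA + PFD replicate 1 and 2 to 5 without any other 1 of the 6 libraries). Nfkbia, the lower DEG and the most abundant member, fell from 764.8, 863.5 and 526.8 CPM to 234.1, 386.2 and 407.3 CPM (-1.07 ± 0.24, adjusted p = 0.00459). Ikbkb, a kinase that activates NF-kB and 1 of the 7, fell from 100.8, 117 and 128 CPM to 58.4, 73.8 and 67.4 CPM (-0.79 ± 0.14, adjusted p = 0.00158). The groups did not overlap for Nr4a1, Il1r1 or Ikbkb.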
